A study of Homo sapiens with 12 samples.

Results

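The DNA replication and nucleotide supply genes were 49 genes picked by symbol out of 60664 genes in the deposited table of raw read counts. The rule uses no measured level, but the genes were chosen with earlier results of these data known. Shares of the set given below beside all genes are therefore descriptions and no independent test. The 49 genes fall into 15 genes of origin licensing, 17 of the replication fork, 9 of the replicative polymerases, 5 of nucleotide supply and 3 of the chromatin laid down behind the fork. All 49 were found in the table, and all 49 passed the filter on low counts, which kept 17960 genes. The libraries were made from SK-N-SH, an established human neuroblastoma line that holds neuron-like and flat, substrate-adherent cells. Cells grown on surfaces of 1, 8 and 30 kPa gave 4 RNA-seq libraries each, and the study asked what the stiffness under the cells does to their transcripts. The kilopascal (kPa) measures elastic modulus, so the 1 kPa surface is the softest. All groups are the same line, and the labels give no drug, genotype or other agent that separates them. The surface material, the time on it and whether replicates were separate cultures are not given in the sources used here, so p-values measure the spread between these libraries, which may be technical.

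A cell licenses its replication origins before S phase. The origin recognition complex (ORC), CDC6 and CDT1 load the ring-shaped helicase MCM2 to MCM7 onto DNA, and geminin (GMNN) holds CDT1 in check afterwards. In S phase CDC45 and GINS switch the helicase on, RPA coats the single strands, the RFC clamp loader places the sliding clamp PCNA, and polymerases alpha, delta and epsilon copy the strands from deoxynucleotides made by ribonucleotide reductase (RRM1 and RRM2), TYMS and TK1. Many of these genes are transcribed mostly in late G1 and S phase under E2F factors, and dividing tumour cells express them strongly. In a bulk library more cells in S phase and more RNA per cell cannot be told apart.

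The 1 kPa libraries held between 14317437 and 15896607 counts, those of 8 kPa between 14951116 and 25349320, and those of 30 kPa between 23896536 and 27820973. The 4 libraries at 1 kPa and 8 kPa replicate 1 form a shallow class of 5, and the other 7 a deep class, so depth and stiffness cannot be told apart between 30 and 1 kPa. Transcripts of the mitochondrial genome took 11.3 to 14.8% of counts at 1 kPa, 10.2 to 11.5% at 8 kPa and 11.7 to 13.2% at 30 kPa. Replicates 1 and 3 at 8 kPa differed least of all pairs of replicates, with a chi-square of 2.62 per gene against 6.03 for the next pair, which is still above sampling noise. Of 7 markers of the sympathetic lineage TH was at 0 in all libraries of 1 and 8 kPa, and the summed level of the list ran from 407 to 621 CPM (counts scaled to library size) at 1 kPa, 510.1 to 729 CPM at 8 kPa and 553 to 635 CPM at 30 kPa. The summed level of 5 markers of the substrate-adherent type ran from 3863 to 4271 CPM at 1 kPa, 3519 to 4213 CPM at 8 kPa and 3192 to 3674 CPM at 30 kPa. The 7 fibroblast genes, which substrate-adherent neuroblastoma cells also express, summed to 2217 to 2454 CPM at 1 kPa, 1907 to 2125 CPM at 8 kPa and 1961 to 2191 CPM at 30 kPa. The 7 immune markers stayed at or below 1.05 CPM in sum in every library, with MS4A1 at 0 throughout, the 6 epithelial markers ran from 48.9 to 74.9 CPM, and the 5 endothelial markers from 2.70 to 10.3 CPM. The part of these markers in the results was not tested.

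The comparison of 8 with 1 kPa asks how the replication genes differ between the middle and the softest surface. Of the 49 genes 21 rose and 0 fell at 8 kPa by the quasi-likelihood test of edgeR, with p-values adjusted over all tested genes by the Benjamini-Hochberg method and a threshold of 0.05. The risers were spread over all 5 roles and include the ribonucleotide reductase subunits RRM2 and RRM1, thymidylate synthase TYMS, the polymerase delta subunit POLD2, the clamp loader subunit RFC2 and UHRF1, which carries DNA methylation onto new strands. The changes were small, from 1.18-fold to 1.46-fold among the risers, and no member reached 2-fold. Among all tested genes 8.17% rose and 5.6% fell by the same rule.

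The summed level of all 49 genes ran from 1621 to 2073 CPM at 1 kPa, from 2107 to 2334 CPM at 8 kPa and from 2089 to 2249 CPM at 30 kPa. Every 8 kPa and every 30 kPa library thus lay above every 1 kPa library in the sum, while the 8 and 30 kPa libraries overlapped. The log2 fold change at 8 against 1 kPa was above 0 for 45 members, against 47.6% of all tested genes, and the median over the members was 0.28, with a median SE of 0.0914, against -0.01 over all genes. For 20 members all 8 kPa libraries lay above all 1 kPa libraries, which held for 9.41% of all genes. Tested for any difference among the stiffnesses, 13 members passed, against 9.16% of all genes. Leaving out 1 kPa replicate 4 gave 28, leaving out 8 kPa replicate 4 gave 16 and leaving out 30 kPa replicate 2 gave 9. Each of the other libraries, when left out, gave 1 to 8, the lowest being 1 kPa replicate 3. The count over all genes moved too, from 1646 with every library to 2546, 3234 and 1062 in the fits first named, in that order. It was 230 to 1224 with each of the other libraries left out, and 437 without 1 kPa replicate 3.

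**Figure D1:**
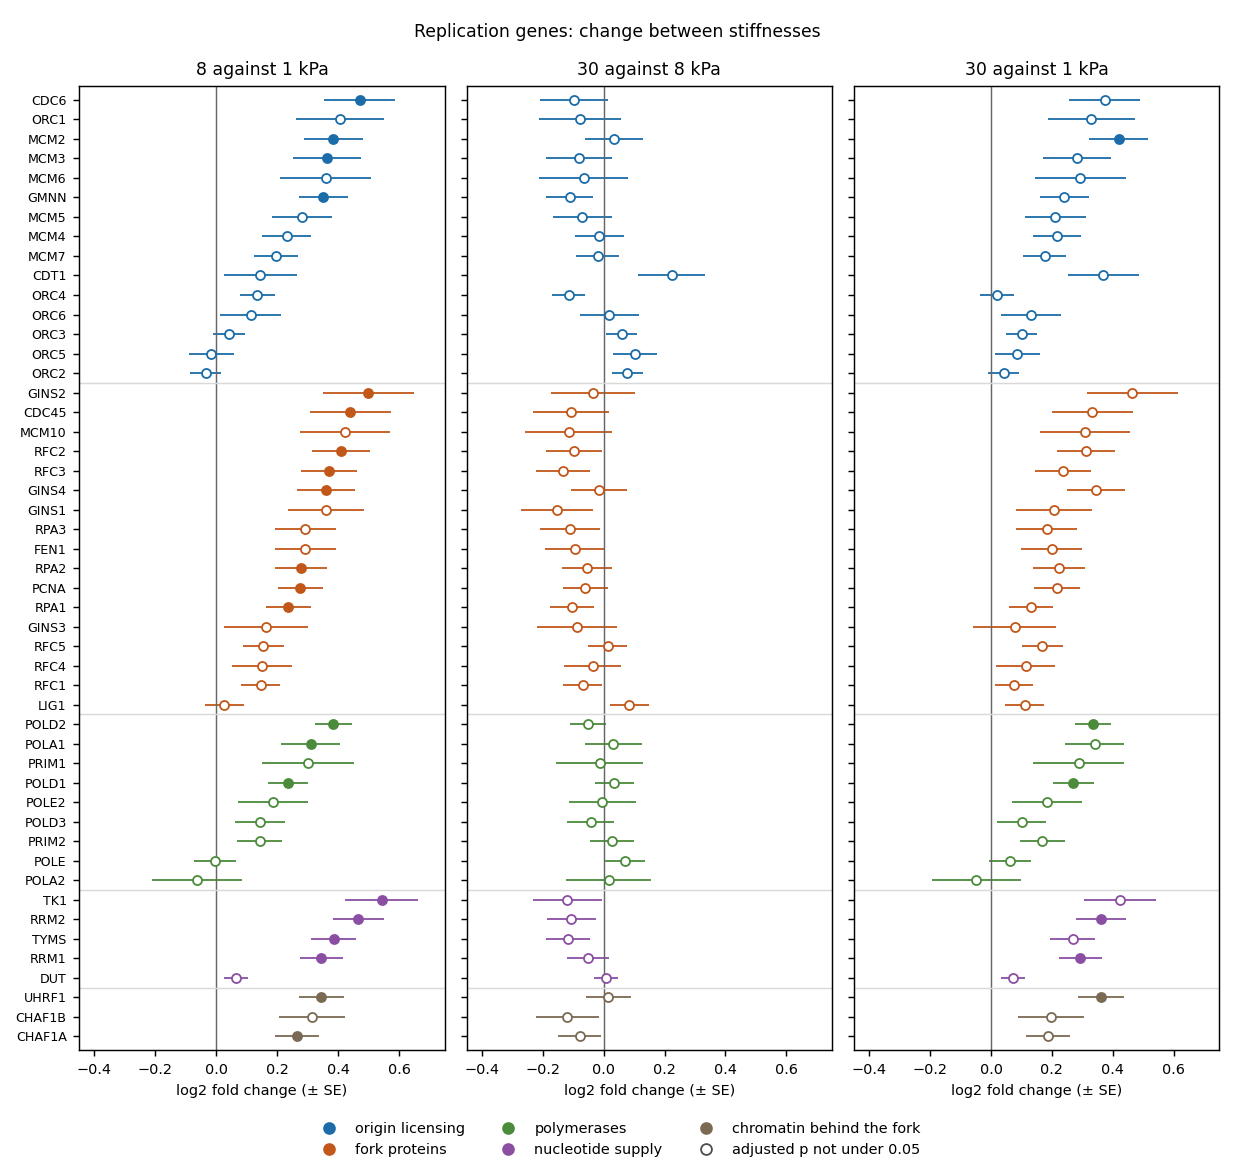
Log2 fold change (x axis, ± SE) of each of the 49 genes (y axis, by role) in the comparisons of 8 with 1 kPa, 30 with 8 kPa and 30 with 1 kPa. Filled points passed adjusted p under 0.05 by edgeR's quasi-likelihood test: 21 at 8 against 1 kPa, 0 at 30 against 8 kPa and 6 at 30 against 1 kPa, all to the right of 0.

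The count at 8 against 1 kPa moved with single libraries, as did that over all genes. Leaving out 8 kPa replicate 3 gave 5, leaving out 8 kPa replicate 1 gave 6, leaving out 1 kPa replicate 3 gave 8 and leaving out 1 kPa replicate 2 gave 10. Over all genes the calls in either direction numbered 2472 with every library, or 13.8%, and 534, 771, 1414 and 1096 in those 4 fits, or 2.93%, 4.22%, 7.76% and 6.01%. In the same 4 fits, in that order, the members' median log2 fold change was 0.27, 0.25, 0.25 and 0.21, against 0.28 with every library. Leaving out both 1 kPa replicate 2 and 8 kPa replicate 1, a choice made after seeing the data, gave 2 members with a median of 0.17, and 181 calls over all genes. The genes called in all 12 fits that left out 1 library were POLD2, RRM1, RRM2, TYMS and UHRF1. With the depth class as a further term 0 members passed, 28 had an unadjusted p under 0.05 and the median log2 fold change was 0.38, with 45 of 49 above 0. In that fit 0 of all genes passed, and 23.9% had an unadjusted p under 0.05. The estimate with the depth term rests on 8 kPa replicate 1, the sole shallow library outside 1 kPa, and not on all 8 kPa libraries. Without the genes of the mitochondrial genome 21 members passed.

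Many members had their extremes in the same libraries. At 1 kPa replicate 2 was the lowest of its group for 37 of the 49 genes and replicate 4 the highest for 35. At 8 kPa replicate 1 was the highest for 31 genes, and at 30 kPa replicate 3 was the highest for 35. The like counts over all genes were not made, so these are not shown to be particular to the members. Replicates 2 and 4 at 1 kPa also differed most of all pairs of replicates, with a chi-square of 33.8 per gene. The median over the members of the log2 ratio to the 1 kPa mean was 0.09, -0.23, -0.06 and 0.18 in 1 kPa replicates 1 to 4, 0.39, 0.20, 0.29 and 0.22 at 8 kPa, and 0.20, 0.21, 0.29 and 0.19 at 30 kPa. The 1 kPa libraries were therefore the most unlike each other, and 1 kPa replicate 4 stood just below the lowest 30 kPa library.

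Genes of G2 and mitosis rose too. In a list of 5 G2/M genes (MKI67, CCNB1, CDK1, AURKA and PLK1) 5 rose at 8 against 1 kPa, with a median log2 fold change of 0.45, and 3 rose at 30 against 1 kPa (CCNB1, CDK1 and PLK1), with a median of 0.44. Among all tested genes 8.17% rose at 8 against 1 kPa and 1.1% at 30 against 1 kPa. For all 5 the 8 kPa and the 30 kPa libraries lay above all 1 kPa libraries, which held for 9.41% and 5.33% of all genes. PLK1, a mitotic kinase, rose by 0.60 (adjusted p = 0.0109, SE 0.122) at 8 against 1 kPa and CCNB1, the mitotic cyclin, by 0.48 (adjusted p = 0.0109, SE 0.0967), both in all 12 fits that left out 1 library. AURKA, called in 9 of these, was lost without 1 kPa replicate 2 or 3 or 8 kPa replicate 3, and CDK1, called in 11, without 8 kPa replicate 3. The part of these genes in the results was not tested. The proliferation marker MKI67 stood at 175 ± 38.1 CPM at 1 kPa, 236 ± 12.7 CPM at 8 kPa and 227 ± 6.28 CPM at 30 kPa (n = 4 each, SD), and it rose at 8 kPa with a log2 fold change of 0.43 (adjusted p = 0.0293, SE 0.118). Leaving out 8 kPa replicate 1 or 3 or 1 kPa replicate 3 took its adjusted p above 0.05, to 0.0878 at most.

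Within the shallow class, 8 kPa replicate 1 lay above all 4 libraries at 1 kPa for 39 members, against 29.9% of all genes. By role this held for 11 of 15 licensing genes, 15 of 17 fork genes, 5 of 9 polymerase genes, 5 of 5 nucleotide supply genes and 3 of 3 chromatin genes. A fit of the 5 shallow libraries gave a median log2 fold change of 0.40 over the members, with 0 past the adjusted threshold and 20 with an unadjusted p under 0.05. Over all genes 0 passed there and 16.9% had an unadjusted p under 0.05. In that fit 1 library stands for 8 kPa and its spread is taken to be like that of the others.

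**Figure D2:**
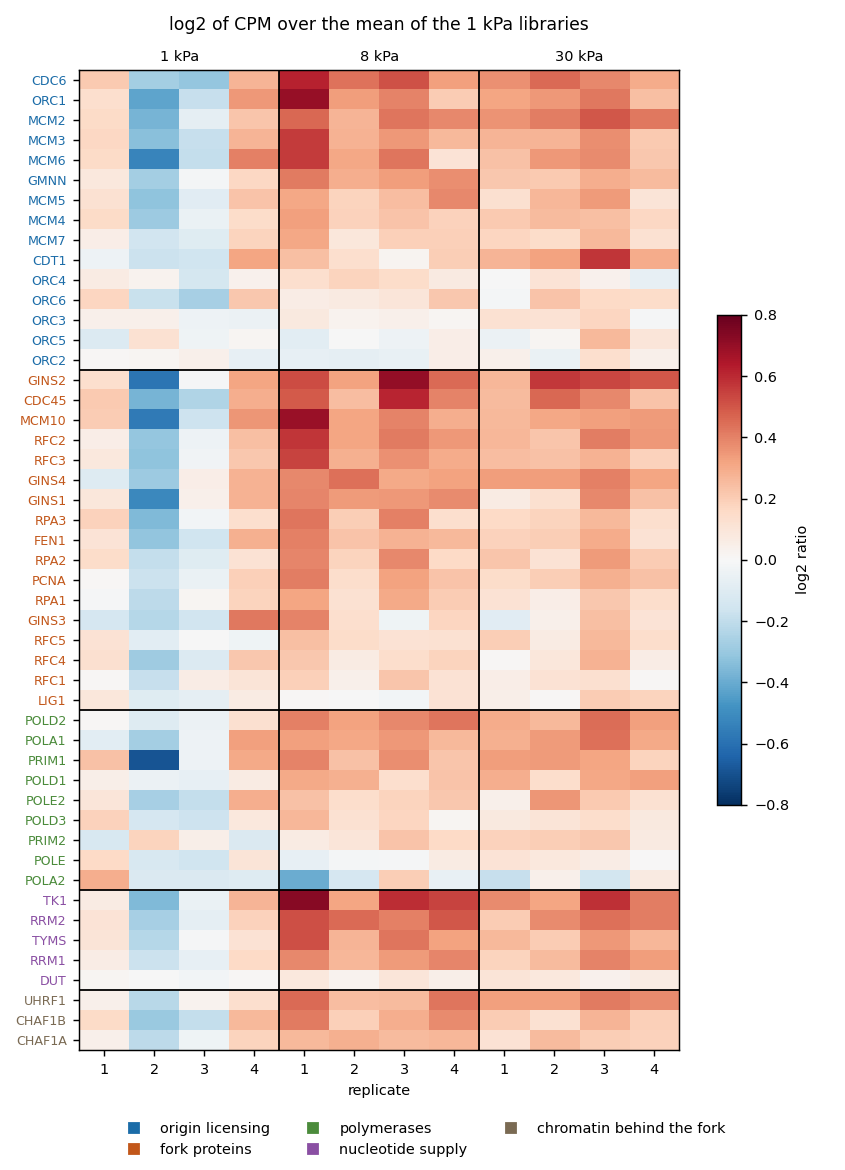
Log2 ratio of each gene's CPM in a library to the mean CPM of the 1 kPa libraries (colour), with genes in rows by role and the 12 libraries in columns by stiffness and replicate. The 1 kPa replicate 2 column is the bluest of its group for most genes (lowest for 37), and the 8 and 30 kPa columns are red for most genes, with DUT, ORC2, ORC5, POLE and LIG1 near white.

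Promoters are shown because E2F factors are the textbook regulators of this set. The windows come from the RefSeq promoter table on GRCh38.p14, which holds 250 bases before to 50 bases after each listed start, and 43 of the 49 genes were in it. Windows for MCM4, MCM5, GINS4, RPA2, RPA3 and POLD3 are not shown here. Both strands were searched for the 8-letter E2F words TTTCGCGC, TTTGGCGC, TTTCCCGC and TTTGCCGC, which can overlap each other on opposite strands, and for CCAAT, which none of them holds. An E2F word stood in the windows of 21 of the 43 genes (48.8%), against 1090 of 27305 genes in the promoter table (3.99%). In this paragraph all genes means those 27305, which were not limited to the genes that passed the filter on counts. CCAAT stood in 26 of the 43 (60.5%), against 39.7% of all genes. TTTCCCGC was the most common of the E2F words, in 12 of the 43 genes against 1.98% of all genes, and TTTGCCGC was in 0 of the 43 against 0.725%.

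The 250 bases before the start are printed for the gene with the smallest p at 8 against 1 kPa in each role, and for POLE, which had the largest p of all 49. GMNN is at chr6:24775163-24775412 on the plus strand, RFC2 at chr7:74254400-74254649 on the minus strand, POLD2 at chr7:44123549-44123798 on the minus strand, RRM2 at chr2:10122318-10122567 on the plus strand, UHRF1 at chr19:4909251-4909500 on the plus strand and POLE at chr12:132687343-132687592 on the minus strand. Each is written 5′ to 3′ on the gene's strand, with capitals marking an E2F word or CCAAT on either strand. Where CCAAT matches on opposite strands overlap, only the first is in capitals. This occurs in the POLE window, where the bases just after CCAAT complete ATTGG. RefSeq's start can differ from the boundary of the GENCODE gene: the windows of GMNN, POLD2, RRM2 and UHRF1 lie inside the annotated gene span, and those of RFC2 and POLE overlap its first bases.
GMNN: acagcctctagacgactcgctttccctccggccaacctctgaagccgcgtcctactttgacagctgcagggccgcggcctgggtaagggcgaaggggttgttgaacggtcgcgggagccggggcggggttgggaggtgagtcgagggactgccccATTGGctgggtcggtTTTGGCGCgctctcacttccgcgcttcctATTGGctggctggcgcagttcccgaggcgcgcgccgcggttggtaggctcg
RFC2: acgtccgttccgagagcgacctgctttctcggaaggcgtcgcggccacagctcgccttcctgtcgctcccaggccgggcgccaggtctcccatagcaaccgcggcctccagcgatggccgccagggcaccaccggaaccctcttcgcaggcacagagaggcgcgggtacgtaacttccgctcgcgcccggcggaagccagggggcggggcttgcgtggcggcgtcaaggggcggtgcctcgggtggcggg
POLD2: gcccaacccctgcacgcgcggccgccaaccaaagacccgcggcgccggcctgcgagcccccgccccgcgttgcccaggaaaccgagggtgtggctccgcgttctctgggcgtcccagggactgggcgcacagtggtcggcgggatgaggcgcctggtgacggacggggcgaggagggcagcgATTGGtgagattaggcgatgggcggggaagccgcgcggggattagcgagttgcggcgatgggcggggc
RRM2: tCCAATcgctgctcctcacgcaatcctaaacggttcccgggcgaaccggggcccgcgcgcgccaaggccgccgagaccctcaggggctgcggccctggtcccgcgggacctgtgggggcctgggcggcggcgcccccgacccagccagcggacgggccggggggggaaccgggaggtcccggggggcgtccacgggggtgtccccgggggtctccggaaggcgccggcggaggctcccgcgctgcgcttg
UHRF1: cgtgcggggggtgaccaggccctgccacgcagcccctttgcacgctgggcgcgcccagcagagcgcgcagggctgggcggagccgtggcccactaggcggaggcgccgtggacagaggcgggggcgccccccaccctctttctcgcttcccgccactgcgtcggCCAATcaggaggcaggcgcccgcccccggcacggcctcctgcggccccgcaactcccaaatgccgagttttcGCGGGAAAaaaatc
POLE: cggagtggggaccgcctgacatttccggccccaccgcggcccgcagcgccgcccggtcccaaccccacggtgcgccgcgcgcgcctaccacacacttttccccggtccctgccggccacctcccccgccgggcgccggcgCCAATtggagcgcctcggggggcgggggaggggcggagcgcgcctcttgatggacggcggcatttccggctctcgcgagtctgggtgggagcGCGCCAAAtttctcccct
GMNN, UHRF1 and POLE hold an E2F word, which begins 80, 14 and 18 bases before the listed start. RFC2, POLD2 and RRM2 hold none of the words in the printed bases. The POLE window, with an E2F word and CCAAT on both strands, belongs to the gene with the largest p. The POLD2 window, without an E2F word, belongs to the gene with the smallest p. The part of these words in the changes was not tested. A match is a description of letters and not of a bound site.

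Among the 21 genes with an E2F word 10 rose at 8 against 1 kPa, with a median log2 fold change of 0.31 and a range from -0.06 to 0.50. Among the 22 without one 9 rose, with a median of 0.28 and a range from -0.04 to 0.54. At 30 against 1 kPa 2 of the 21 with a word and 4 of the 22 without one rose, with medians of 0.24 and 0.20. The ranges overlapped almost fully, and no test was made.

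**Figure D3:**
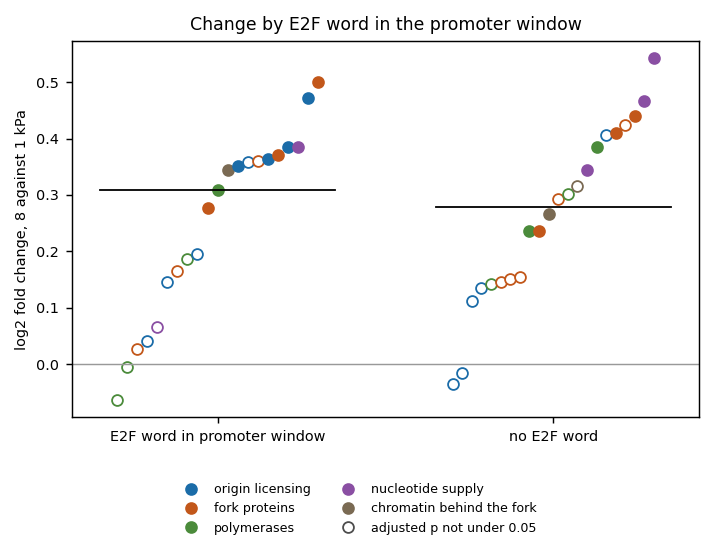
Log2 fold change at 8 against 1 kPa (y axis) of the 43 genes in the promoter table, split by an E2F word in the promoter window (x axis) and coloured by role. Lines are medians (0.31 with a word, 0.28 without), filled points passed adjusted p under 0.05, and both groups span similar ranges.

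Among the 15 licensing genes 4 rose at 8 kPa, namely CDC6, MCM2, MCM3 and GMNN, 0 fell, and the median log2 fold change was 0.23. CDC6 (ENSG00000094804, chr17:40287633-40304657, plus strand), the ATPase that brings the helicase to ORC, had 22.01, 15.8, 15.4 and 23.04 CPM at 1 kPa, 29.3, 25.7, 27.2 and 23.9 CPM at 8 kPa and 24.5, 26.1, 24.9 and 23.4 CPM at 30 kPa. Every 8 kPa library was above every 1 kPa library, and 1 kPa replicates 2 and 3 were the lowest of all. Its log2 fold change at 8 against 1 kPa was 0.47 (adjusted p = 0.0208, SE 0.117), and over the 12 fits that left out 1 library the adjusted p ran from 0.00697 to 0.0686, above 0.05 without 1 kPa replicate 2 or 3 or 8 kPa replicate 1 or 3.

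GMNN (ENSG00000112312, chr6:24774931-24786099, plus strand), the inhibitor of CDT1, had 19.1, 14.9, 17.8 and 20.3 CPM at 1 kPa, 24.1, 22.1, 22.8 and 23.3 CPM at 8 kPa and 20.9, 20.9, 22.03 and 21.5 CPM at 30 kPa. The 8 kPa libraries stood above all others, the 30 kPa libraries came next and the 1 kPa libraries lowest, with no overlap among the groups. GMNN rose at 8 against 1 kPa with a log2 fold change of 0.35 (adjusted p = 0.0153, SE 0.0802), while the adjusted p ran from 0.00703 to 0.0521 with 1 library left out and was above 0.05 without 8 kPa replicate 1 or 3. At 30 against 8 kPa the log2 fold change was -0.11 (adjusted p = 0.466, SE 0.07696), which did not pass.

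CDT1, the helicase loader that GMNN inhibits, followed another order. It had 7.06, 6.46, 6.502 and 9.05 CPM at 1 kPa, 8.595, 7.97, 7.39 and 8.35 CPM at 8 kPa and 8.76, 9.09, 10.8 and 8.93 CPM at 30 kPa. All 30 kPa libraries lay above all 8 kPa libraries, while 1 kPa replicate 4 lay above all of 8 kPa. The log2 fold change was 0.14 (adjusted p = 0.431, SE 0.119) at 8 against 1 kPa, 0.22 (adjusted p = 0.303, SE 0.111) at 30 against 8 kPa and 0.37 (adjusted p = 0.105, SE 0.116) at 30 against 1 kPa by edgeR's test, so none passed. The ratio of CDT1 CPM to GMNN CPM within a library ran from 0.365 to 0.447 at 1 kPa, 0.324 to 0.361 at 8 kPa and 0.415 to 0.489 at 30 kPa, lowest at 8 kPa without overlap.

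MCM2, a subunit of the helicase, had 40.2, 27.9, 34.4 and 42.1 CPM at 1 kPa, 49.6, 43.7, 48.7 and 47.1 CPM at 8 kPa and 46.3, 47.9, 50.9 and 48.4 CPM at 30 kPa. Both stiffer groups lay above the 1 kPa libraries, where replicate 2 was the lowest. It rose by 0.38 (adjusted p = 0.0231, SE 0.09798) at 8 against 1 kPa and by 0.42 (adjusted p = 0.04198, SE 0.0975) at 30 against 1 kPa on the log2 scale, and with 1 library left out the adjusted p ran from 0.00821 to 0.0735 at 8 against 1 kPa, above 0.05 without 1 kPa replicate 3 or 8 kPa replicate 1 or 3. The call at 30 against 1 kPa was kept in 4 of the 12 fits, those without 1 kPa replicate 2 or 4 or 8 kPa replicate 2 or 4 (adjusted p from 0.0214 to 0.133). The exons of MCM2 share 1158 bases with opposite-strand genes, TPRA1 among them, and the strand setting is not given, so reads of both strands cannot be told apart. Exon bases are shared with an opposite-strand gene in 18 of the 49 genes, and 9 of the 49 have named pseudogenes. MCM3 averaged 108 ± 10.5 CPM at 8 kPa and 83.9 ± 16.5 CPM at 1 kPa (n = 4 each, SD) and rose by 0.36 (adjusted p = 0.04398, SE 0.111) on the log2 scale, a call kept in 3 of the 12 fits, those without 1 kPa replicate 1 or 4 or 8 kPa replicate 4 (adjusted p from 0.0111 to 0.1396). The whole MCM2 to MCM7 ring was above 0 at 8 against 1 kPa, from 0.20 for MCM7 to 0.38 for MCM2, and only MCM2 and MCM3 passed (adjusted p from 0.0231 to 0.119 over the 6 subunits). In CPM per kilobase of exon, MCM7 stood at a mean of 38.7 and MCM5 of 4.98, a 7.78-fold span within the ring. The length is that of all annotated exons merged, 4386 bases for MCM7 and 7338 for MCM5, so the span depends partly on annotation. In CPM the means were 170 and 36.5.

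In the origin recognition complex, which marks the start sites of replication, 0 of the 6 subunits passed at 8 against 1 kPa. ORC5 had 26.7, 31.4, 28.2 and 29.2 CPM at 1 kPa, 27.2, 28.8, 28.1 and 29.96 CPM at 8 kPa and 27.95, 29.1, 34.5 and 30.9 CPM at 30 kPa. Its groups overlapped, and its log2 fold change was -0.02 (adjusted p = 0.908, SE 0.0735) at 8 against 1 kPa. ORC2, ORC3, ORC4 and ORC5, which are present through the cell cycle, ran from -0.04 to 0.14 at 8 against 1 kPa and from 0.02 to 0.10 at 30 against 1 kPa, with 0 of 4 called in either. ORC1, the subunit that is made anew in each G1 phase in human cells, averaged 12.2 ± 1.84 CPM at 8 kPa and 9.15 ± 2.14 CPM at 1 kPa (n = 4 each, SD), with a log2 fold change of 0.41 (adjusted p = 0.0731, SE 0.144). ORC6 had 0.11 (adjusted p = 0.4697, SE 0.0996) on the same scale.

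Fork genes gave 8 risers of 17 at 8 against 1 kPa, with 0 fallers, a median of 0.29 and all 17 above 0. They were RFC2, RFC3, GINS4, GINS2, PCNA, CDC45, RPA1 and RPA2. RFC2 (ENSG00000049541, chr7:74231499-74254458, minus strand), a small subunit of the clamp loader, had 32.1, 24.98, 30.04 and 36.5 CPM at 1 kPa, 45.9, 38.5, 41.2 and 39.2 CPM at 8 kPa and 37.2, 36.1, 40.98 and 39.3 CPM at 30 kPa. The 8 kPa libraries lay above the 1 kPa libraries, led by 8 kPa replicate 1. The log2 fold change of RFC2 was 0.41 (adjusted p = 0.0163, SE 0.0953) at 8 against 1 kPa and 0.31 (adjusted p = 0.0946, SE 0.09495) at 30 against 1 kPa, and the adjusted p of the first ran from 0.00517 to 0.0575 with 1 library left out, above 0.05 without 8 kPa replicate 1 or 3.

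RFC3, another small subunit of the clamp loader, had 43.5, 32.8, 40.2 and 47.5 CPM at 1 kPa, 59.6, 49.98, 52.8 and 50.3 CPM at 8 kPa and 48.7, 48.3, 49.8 and 46.6 CPM at 30 kPa. All 8 kPa libraries were above the 1 kPa libraries and above the 30 kPa libraries, and 8 kPa replicate 1 was the highest. RFC3 rose by 0.37 (adjusted p = 0.0202, SE 0.0914) at 8 against 1 kPa, with an adjusted p of 0.00703 to 0.0708 when 1 library was left out, above 0.05 without 1 kPa replicate 3 or 8 kPa replicate 1 or 3. At 30 against 8 kPa it had -0.13 (adjusted p = 0.443, SE 0.0891) and did not pass. The other clamp loader subunits RFC1, RFC4 and RFC5 each had 0.15 at 8 against 1 kPa, and none of them passed (lowest adjusted p = 0.1305).

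GINS4, a subunit of the helicase activator, had 12.2, 10.8, 13.7 and 15.95 CPM at 1 kPa, 17.2, 17.8, 16.3 and 16.5 CPM at 8 kPa and 16.6, 16.6, 17.4 and 16.3 CPM at 30 kPa. The 1 kPa libraries were spread from 10.8 to 15.95 CPM, all below the 8 kPa and 30 kPa libraries. GINS4 rose at 8 against 1 kPa with a log2 fold change of 0.36 (adjusted p = 0.0277, SE 0.0966), a call kept in 6 of the 12 fits that left out 1 library (adjusted p from 0.005497 to 0.0745) and lost without 1 kPa replicate 1, 2 or 3 or 8 kPa replicate 1, 2 or 3. Its exons share 1290 bases with opposite-strand genes. The 4 GINS subunits ran from 0.16 for GINS3 to 0.50 for GINS2 at 8 against 1 kPa, and all 4 lay below 0 at 30 against 8 kPa with none past the test.

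PCNA, the sliding clamp, had the highest level per length of the 49 genes, at a mean of 62.4 CPM per kilobase of exon, and POLA2 the lowest at 0.658. PCNA had 82.2, 72.4, 78.7 and 93.2 CPM at 1 kPa, 108, 90.02, 102 and 95.5 CPM at 8 kPa and 90.2, 93.7, 99.6 and 95.9 CPM at 30 kPa. The groups overlapped through 1 kPa replicate 4, which lay above 8 kPa replicate 2. PCNA rose at 8 against 1 kPa with a log2 fold change of 0.28 (adjusted p = 0.0291, SE 0.07505), kept in 7 of the 12 fits that left out 1 library (adjusted p from 0.00739 to 0.0968) and lost without 1 kPa replicate 1, 2 or 3 or 8 kPa replicate 1 or 3. PCNA has 3 named pseudogenes, whose reads the counting could have shared.

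CDC45, which completes the active helicase, averaged 15.5 ± 1.65 CPM at 8 kPa and 11.4 ± 2.55 CPM at 1 kPa (n = 4 each, SD) and rose by 0.44 (adjusted p = 0.04199, SE 0.133). RPA1, the large subunit of the single-strand coat, rose by 0.24 (adjusted p = 0.0452, SE 0.0731) and RPA2 by 0.28 (adjusted p = 0.0438, SE 0.0852), while RPA3 had 0.29 (adjusted p = 0.0678, SE 0.101). MCM10, a helicase activation factor, had 0.42 (adjusted p = 0.0693, SE 0.147), and the flap endonuclease FEN1 0.29 (adjusted p = 0.0669, SE 0.101), both short of the threshold. GINS2 rose by 0.50 (adjusted p = 0.0408, SE 0.1496). With 1 library left out, the calls of CDC45 (adjusted p from 0.01401 to 0.134) and RPA2 (adjusted p from 0.0274 to 0.139) held in 4 of 12 fits each and were lost without 1 kPa replicate 2 or 3, 8 kPa replicate 1 or 3 or any 30 kPa library. That of RPA1 held in 3 (adjusted p from 0.0123 to 0.134), lost without 1 kPa replicate 1 as well, and that of GINS2 in 4 (adjusted p from 0.0154 to 0.133), those without 1 kPa replicate 4, 8 kPa replicate 2 or 4 or 30 kPa replicate 1. LIG1, the ligase that seals Okazaki fragments, had 39.8, 34.9, 35.6 and 39.1 CPM at 1 kPa, 37.5, 37.3, 36.7 and 40.5 CPM at 8 kPa and 38.5, 37.5, 42.99 and 42.1 CPM at 30 kPa. Its groups overlapped throughout, and its log2 fold change was 0.03 (adjusted p = 0.818, SE 0.0646), the smallest of the fork genes.

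**Figure D4:**
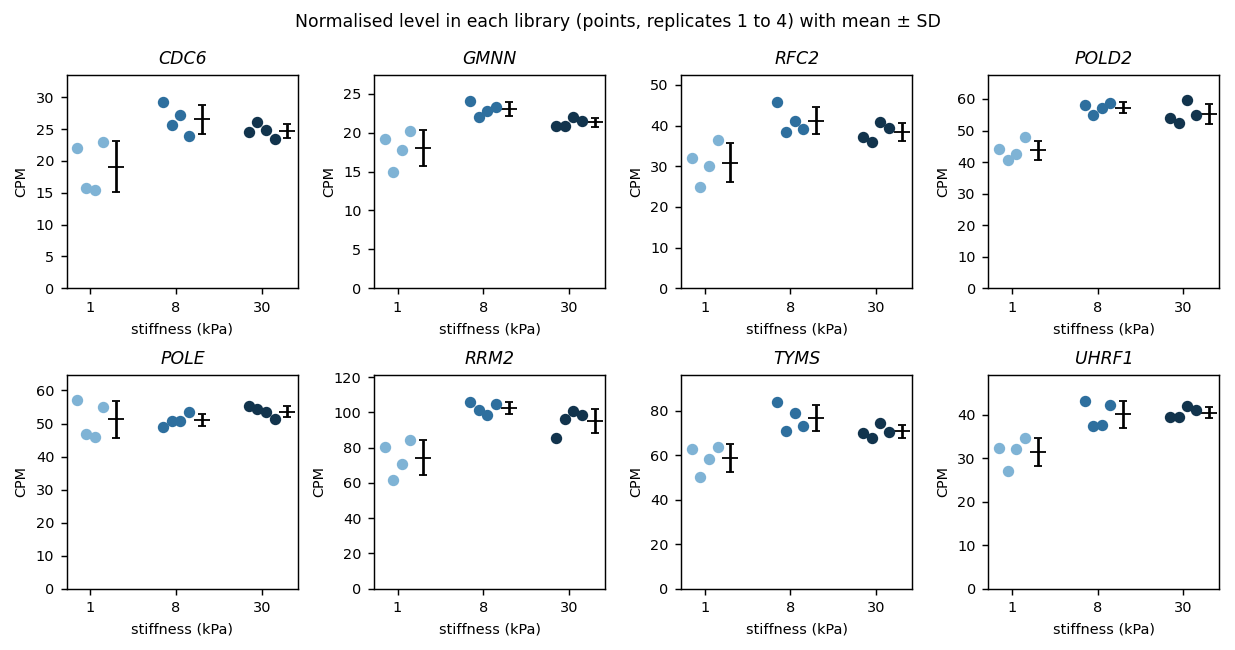
Normalised level in CPM (y axis, from 0) of 8 genes by stiffness (x axis, in kPa), with a point for each library in the order of replicates 1 to 4 and the mean ± SD beside them. All 8 kPa libraries lie above all 1 kPa libraries for CDC6, GMNN, RFC2, POLD2, RRM2, TYMS and UHRF1, and the groups overlap for POLE.

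Polymerase genes gave 3 risers of 9 at 8 against 1 kPa, POLD2, POLD1 and POLA1, 0 fallers and a median of 0.19. POLD2 (ENSG00000106628, chr7:44114681-44124358, minus strand), the accessory subunit of the lagging-strand polymerase delta, had 44.1, 40.7, 42.5 and 47.9 CPM at 1 kPa, 57.9, 54.8, 57.3 and 58.8 CPM at 8 kPa and 53.9, 52.3, 59.5 and 54.98 CPM at 30 kPa. All 8 and 30 kPa libraries were above all 1 kPa libraries. The log2 fold change was 0.38 (adjusted p = 0.00552, SE 0.0593) at 8 against 1 kPa, with an adjusted p from 0.00316 to 0.0306 over the 12 fits that left out 1 library, and 0.33 (adjusted p = 0.0141, SE 0.0591) at 30 against 1 kPa, lost without 30 kPa replicate 3 (adjusted p from 0.0108 to 0.0601 over the 12 fits). POLD2 has 1 named pseudogene.

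POLD1, the catalytic subunit of polymerase delta, had 18.7, 17.5, 17.3 and 18.9 CPM at 1 kPa, 22.3, 22.1, 19.9 and 21.2 CPM at 8 kPa and 22.2, 19.99, 22.5 and 22.7 CPM at 30 kPa. The lowest library of 8 kPa, replicate 3, lay above the highest of 1 kPa, and the 30 kPa libraries did so too. POLD1 rose by 0.24 (adjusted p = 0.03303, SE 0.0666) at 8 against 1 kPa and by 0.27 (adjusted p = 0.0474, SE 0.0661) at 30 against 1 kPa on the log2 scale. With 1 library left out the call at 8 against 1 kPa held in 6 of 12 fits (adjusted p from 0.02996 to 0.101) and that at 30 against 1 kPa in 3 of 12 (adjusted p from 0.0446 to 0.151). At 8 against 1 kPa the call was lost without 1 kPa replicate 1, 2 or 3 or 8 kPa replicate 1, 2 or 3, and at 30 against 1 kPa it held with replicate 4 of 1 kPa, replicate 4 of 8 kPa or replicate 2 of 30 kPa left out.

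POLA1, the catalytic subunit of the primer-making polymerase alpha, had 19.1, 16.8, 19.7 and 25.4 CPM at 1 kPa, 25.5, 25.1, 25.8 and 24.3 CPM at 8 kPa and 24.6, 25.6, 27.5 and 25.03 CPM at 30 kPa. Its 1 kPa replicate 4 reached into the range of the 8 and 30 kPa libraries, and the other 1 kPa libraries lay below them. The rise at 8 against 1 kPa was 0.31 (adjusted p = 0.0478, SE 0.0971) on the log2 scale, and it was kept in 2 of the 12 fits that left out 1 library, those without 1 kPa replicate 4 or 8 kPa replicate 4 (adjusted p from 0.00411 to 0.133). POLA2 had -0.06, PRIM1 0.30 and PRIM2 0.14, with none past the test. The 2 polymerase epsilon genes among the members did not pass either, with POLE2 at 0.19 (adjusted p = 0.289, SE 0.116). Epsilon subunits outside the members are POLE3 and POLE4. By the same test POLE3 rose by 0.41 (adjusted p = 0.0137, SE 0.091), called in all 12 fits that left out 1 library. POLE4 had 0.31 (adjusted p = 0.133, SE 0.136) and did not pass. POLE (ENSG00000177084, chr12:132623753-132687365, minus strand), the catalytic subunit on the leading strand, had 57.2, 46.9, 45.9 and 55.01 CPM at 1 kPa, 49.01, 50.7, 50.9 and 53.6 CPM at 8 kPa and 55.3, 54.3, 53.4 and 51.3 CPM at 30 kPa. Its 8 kPa libraries lay inside the range of the 1 kPa libraries, and its log2 fold change was -0.01 (adjusted p = 0.969, SE 0.0688).

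Nucleotide supply had the highest median of the 5 roles, 0.38 at 8 against 1 kPa, with 4 risers of 5, 0 fallers and all 5 genes without overlap between 8 and 1 kPa. RRM2 (ENSG00000171848, chr2:10120698-10131419, plus strand), the S-phase subunit of ribonucleotide reductase, had 80.1, 61.8, 70.7 and 84.2 CPM at 1 kPa, 106, 101, 98.3 and 105 CPM at 8 kPa and 85.5, 96.4, 101 and 98.6 CPM at 30 kPa. All 8 kPa libraries stood well above the highest 1 kPa library, and the lowest 30 kPa library, replicate 1, stood just above it. RRM2 rose by 0.47 (adjusted p = 0.007703, SE 0.0827) at 8 against 1 kPa, with an adjusted p from 0.00381 to 0.0317 over the 12 fits that left out 1 library, and by 0.36 (adjusted p = 0.0399, SE 0.0825) at 30 against 1 kPa on the log2 scale. RRM2 has 3 named pseudogenes.

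RRM1, the large subunit of the same enzyme, had 79.9, 67.97, 73.4 and 85.6 CPM at 1 kPa, 99.99, 92.2, 97.2 and 100.4 CPM at 8 kPa and 86.6, 91.5, 101 and 96.7 CPM at 30 kPa. The 8 and 30 kPa libraries lay above the 1 kPa libraries, though 30 kPa replicate 1 did so by little. The rise was 0.34 (adjusted p = 0.0111, SE 0.0701) at 8 against 1 kPa, with an adjusted p from 0.00452 to 0.04299 over the 12 fits, and 0.29 (adjusted p = 0.0448, SE 0.06997) at 30 against 1 kPa. The second was kept in 3 of the 12 fits, those that left out replicate 4 of 1 kPa, replicate 4 of 8 kPa or replicate 1 of 30 kPa (adjusted p from 0.02197 to 0.152), and that of RRM2 in 5 of 12 (adjusted p from 0.0214 to 0.131), lost without 1 kPa replicate 1 or 3, 8 kPa replicate 2 or 3 or 30 kPa replicate 2, 3 or 4.

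TYMS, which makes thymidylate, had 62.95, 50.1, 58.3 and 63.6 CPM at 1 kPa, 84.1, 70.8, 78.95 and 73.3 CPM at 8 kPa and 70.1, 67.5, 74.6 and 70.6 CPM at 30 kPa. The 8 kPa libraries were above those of 1 kPa, with 8 kPa replicate 1 the highest of all. TYMS rose by 0.38 (adjusted p = 0.00968, SE 0.0749) at 8 against 1 kPa, with an adjusted p from 0.00589 to 0.0424 when 1 library was left out, and had 0.27 (adjusted p = 0.0735, SE 0.0747) at 30 against 1 kPa. The TYMS exons share 1150 bases with the opposite-strand genes TYMSOS and ENOSF1, so its level is uncertain without a stated strand.

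TK1, the thymidine kinase of the salvage route, had 12.6, 9.403, 11.6 and 14.5 CPM at 1 kPa, 19.9, 14.97, 18.1 and 17.5 CPM at 8 kPa and 15.6, 14.9, 18.02 and 15.98 CPM at 30 kPa. The lowest 8 kPa library, replicate 2, was above the highest 1 kPa library, replicate 4. TK1 had the largest log2 fold change of the 49 genes at 8 against 1 kPa, 0.54 (adjusted p = 0.0139, SE 0.1199), and the call was lost without 8 kPa replicate 3 (adjusted p from 0.00553 to 0.05198 over the 12 fits). DUT, which clears dUTP, had 98.3, 96.8, 95.7 and 97.9 CPM at 1 kPa, 103, 99.2, 104 and 100.3 CPM at 8 kPa and 104, 103, 99.5 and 102 CPM at 30 kPa. Its 8 kPa libraries lay just above the 1 kPa libraries, and the log2 fold change of 0.07 (adjusted p = 0.292, SE 0.0406) did not pass. DUT has 8 named pseudogenes, and its exons share 533 bases with an opposite-strand gene.

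Of the 3 chromatin genes UHRF1 and CHAF1A rose at 8 against 1 kPa, and the median was 0.32. UHRF1 (ENSG00000276043, chr19:4903080-4962154, plus strand) had 32.4, 26.99, 32.1 and 34.6 CPM at 1 kPa, 43.1, 37.4, 37.6 and 42.3 CPM at 8 kPa and 39.5, 39.5, 41.99 and 41.004 CPM at 30 kPa. Both stiffer groups lay above the 1 kPa libraries. UHRF1 rose by 0.34 (adjusted p = 0.0131, SE 0.0749) at 8 against 1 kPa, with an adjusted p from 0.00729 to 0.0478 over the 12 fits that left out 1 library. At 30 against 1 kPa it rose by 0.36 (adjusted p = 0.0245, SE 0.0745), kept in 8 of the 12 fits (adjusted p from 0.0189 to 0.0933) and lost without 1 kPa replicate 1 or 3 or 30 kPa replicate 3 or 4.

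CHAF1A, the large subunit of the histone chaperone CAF-1, had 22.9, 19.2, 21.7 and 25.2 CPM at 1 kPa, 26.6, 27.1, 26.6 and 26.8 CPM at 8 kPa and 24.1, 26.6, 25.5 and 25.3 CPM at 30 kPa. The 8 kPa libraries lay close together and above all 1 kPa libraries. CHAF1A rose by 0.27 (adjusted p = 0.0296, SE 0.0725) at 8 against 1 kPa, kept in 6 of the 12 fits (adjusted p from 0.00886 to 0.0778) and lost without 1 kPa replicate 1, 2 or 3 or 8 kPa replicate 1, 2 or 3. CHAF1B, its partner subunit, had 14.3, 10.5, 11.3 and 15.4 CPM at 1 kPa, 17.2, 14.7, 15.8 and 16.7 CPM at 8 kPa and 14.8, 14.1, 15.6 and 14.7 CPM at 30 kPa. The groups overlapped, since 1 kPa replicate 4 lay above 8 kPa replicate 2. The log2 fold change of CHAF1B was 0.32 (adjusted p = 0.06602, SE 0.108), short of the threshold.

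The comparison of 30 with 8 kPa asks whether the replication genes differ further between the stiffest and the middle surface. Log2 fold changes ran from -0.15 to 0.22, and 0 of the 49 passed the quasi-likelihood test of edgeR after Benjamini-Hochberg adjustment, as did 0.0% of all tested genes. The extremes were CDT1 at 0.22 (adjusted p = 0.303, SE 0.111) and GINS1 at -0.15 (adjusted p = 0.518, SE 0.119). At an unadjusted p under 0.05 the count was 0 of 49, against 17.9% of all genes. DESeq2 called 430 of all genes and limma-voom 0, and both called 0 members. The 0 over all genes by edgeR moved with single libraries, to 1026 without 8 kPa replicate 4 and 187 without 1 kPa replicate 2. Members called stayed at 0 in every fit that left out 1 library.

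The log2 fold change at 30 against 8 kPa was below 0 for 34 members, against 49.1% of all genes, and the median was -0.05 with a median SE of 0.0891. By role the medians were -0.02 for licensing, -0.09 for the fork, 0.02 for polymerases, -0.11 for nucleotide supply and -0.08 for chromatin. Groups did not overlap for CDT1, with 30 kPa the higher, and for GMNN and RFC3, with 30 kPa the lower. These are 1 and 2 of 49, against 4.79% and 6.5% of all genes. In the 7 deep libraries the median was -0.01 and 0 members passed.

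The comparison of 30 with 1 kPa spans the ends of the stiffness range and uses the same 1 kPa libraries as that of 8 with 1 kPa. For 48 of the 49 the log2 fold change was above 0, against 50% of all genes, and 6 rose and 0 fell by edgeR's quasi-likelihood test. These were MCM2, POLD1, POLD2, RRM1, RRM2 and UHRF1, with log2 fold changes from 0.27 to 0.42. Among all tested genes 1.1% rose and 1.33% fell. The median over the members was 0.22 with a median SE of 0.0912.

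All 30 kPa libraries lay above all 1 kPa libraries for 13 members, against 5.33% of all genes. The largest log2 fold change was that of GINS2, 0.46 (adjusted p = 0.1095, SE 0.149), which did not pass. The count of 6 became 0 when 30 kPa replicate 3 was left out and 1 when replicate 4 of 30 kPa or replicate 1 or 3 of 1 kPa was. It became 2 with replicate 3 of 8 kPa left out, 3 with replicate 1 or 2 of 8 kPa or replicate 2 of 30 kPa left out, and 13 with replicate 4 of 1 kPa left out. Over all genes the 437 calls (2.43%) became 50 (0.275%) without 30 kPa replicate 3 and 583 (3.2%) without 1 kPa replicate 4. The members' count was 13 with DESeq2, which called 1068 of all genes, against the 437 of edgeR. With the depth class as a further term 0 members passed, 19 had an unadjusted p under 0.05 and the median was 0.35, an estimate that rests on 8 kPa replicate 1 as the sole shallow library outside 1 kPa. Among all genes 0 passed with that term and 9.82% had an unadjusted p under 0.05.

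Other genes of DNA replication, 115 in 5 lists of which 113 were tested, gave 21 risers and 2 fallers at 8 against 1 kPa. Their median log2 fold change was 0.12. Among all tested genes 8.17% rose and 5.6% fell, which are the shares to set beside each list below. The 23 calls became 35 with 1 kPa replicate 4 left out, 14 with 8 kPa replicate 1 left out and 12 with 8 kPa replicate 3 left out. Among 18 E2F and DP factors TFDP1, the partner that E2F proteins bind DNA with, rose by 0.36 (adjusted p = 0.00726, SE 0.0623), and it was the sole riser. E2F1 averaged 17.4 ± 1.14 CPM at 8 kPa and 13.1 ± 2.91 CPM at 1 kPa (n = 4 each, SD), with 0.40 (adjusted p = 0.0518, SE 0.128), short of the threshold. Of 32 genes of origin firing and fork protection 6 rose, among them CCNA2, the S-phase cyclin, by 0.49 (adjusted p = 0.0128, SE 0.105) and DBF4, the activator of the CDC7 kinase, by 0.40 (adjusted p = 0.0124, SE 0.0843), while the G1/S cyclin CCNE2 had 0.15 (adjusted p = 0.373, SE 0.112). The other G1/S cyclin, CCNE1, named after its values were seen, rose by 0.40 (adjusted p = 0.0369, SE 0.118), with its 8 kPa libraries above all 1 kPa libraries. Its call was kept in 8 of the 12 fits that left out 1 library and lost without 1 kPa replicate 2 or 3 or 8 kPa replicate 1 or 3 (adjusted p up to 0.116).

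Of 16 tested other fork enzymes 3 rose and 2 fell. SSBP1, the mitochondrial single-strand binding protein, rose by 0.27 (adjusted p = 0.0119, SE 0.05603) on the log2 scale. POLD4, the small subunit of polymerase delta, averaged 2.72 ± 0.446 CPM at 8 kPa and 4.39 ± 0.453 CPM at 1 kPa (n = 4 each, SD) and fell, with a log2 fold change of -0.67 (adjusted p = 0.0122, SE 0.141). The translesion polymerase POLK fell too, with -0.15 (adjusted p = 0.0464, SE 0.0481). POLD4 thus went the other way from POLD1 and POLD2, and POLD3, the remaining subunit, had 0.14 (adjusted p = 0.242, SE 0.0807).

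Nucleotide synthesis and salvage gave 9 risers and 0 fallers of 35 tested, among them the guanylate kinase GUK1 by 0.38 (adjusted p = 0.00521, SE 0.0562) and IMPDH1, which leads into guanine nucleotides, by 0.38 (adjusted p = 0.007703, SE 0.0673). New-strand chromatin gave 2 risers and 0 fallers of 12, the histone chaperones ASF1B by 0.61 (adjusted p = 0.00656, SE 0.101) and SSRP1 by 0.25 (adjusted p = 0.0378, SE 0.0739). The maintenance methyltransferase DNMT1, which UHRF1 recruits, had 0.14 (adjusted p = 0.131, SE 0.06202). Of these named genes SSRP1 held in 3 of the 12 fits that left out 1 library and POLK in 2, while TFDP1, CCNA2, DBF4, SSBP1, POLD4, GUK1, IMPDH1 and ASF1B held in all 12. At 30 against 1 kPa 7 of the 113 rose and 0 fell, against 1.1% and 1.33% of all genes, with a median of 0.10. By edgeR's test ASF1B had 0.58 there (adjusted p = 0.0126, SE 0.10004), CCNA2 0.49 (adjusted p = 0.0281, SE 0.104) and TFDP1 0.26 (adjusted p = 0.0448, SE 0.0621). At 30 against 8 kPa 0 passed by edgeR's test and 15 of 113 had an unadjusted p under 0.05, against 17.9% of all genes, while DESeq2 called 1, against 2.39% of all genes. The 7 calls at 30 against 1 kPa became 0 with 30 kPa replicate 3 left out and 13 with 1 kPa replicate 4 left out, and were 2 to 4 without 1 kPa replicate 1, 2 or 3, 8 kPa replicate 3 or 30 kPa replicate 1, 2 or 4.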

How the data were processed

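RNA-seq of 12 SK-N-SH libraries was deposited by the authors as 1 table of raw counts per Ensembl gene. Reads were aligned with HISAT2 to GRCh38, per the submitters' processing notes; the counting tool, annotation release and strand setting are not given in the sources used here. Of 60664 identifiers 60463 matched the gene name table. Positions and exon lengths came from GENCODE v29 (GRCh38), with all annotated exons of a gene merged.

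The analysis used edgeR 4.0.16 (R 4.3.3). filterByExpr kept 17960 genes. A model with TMM scaling and stiffness alone was fitted to all 12 libraries. The quasi-likelihood F-test was adjusted by Benjamini-Hochberg over all tested genes, at 0.05. Each SE is the log2 fold change over the root of F. The biological coefficient of variation was 0.0966. CPM are counts scaled to library size after TMM. All values come from 12 libraries, 4 per stiffness; totals set the counting error, and the lowest count of a member in any library was 45. The step was tested on simulated data whose planted changes were all larger than that of any member. Recovery of changes as small as those of the members was therefore not tested.

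The members and lists were chosen with earlier results of these data known. Values in every library are given for the 3 members with the smallest and the 1 with the largest p at 8 against 1 kPa in each role, plus MCM2, CDC6, CDT1, GMNN, PCNA, RRM2, TYMS, TK1 and UHRF1. Of each list of other replication genes the 2 with the smallest p were named, with E2F1, CCNE2, DNMT1 and MKI67. Some genes of the lists are counted but not reported here by name. POLK, the other gene that fell, CCNE1, POLE3, POLE4 and the G2/M genes other than MKI67 were named after their values were seen. For a gene with several RefSeq windows, the one with most E2F words in the printed bases was taken, then the one nearest the GENCODE start.

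Alternatives were median-ratio scaling, library size alone, no filter, a filter of 5 CPM in 4 libraries, DESeq2 1.42.0, limma-voom (limma 3.58.1), a replicate block, depth class as a term, a length offset, each library left out, and the 2 groups alone. Chosen after seeing the data were the fits without the mitochondrial genome, without 1 kPa replicate 2 and 8 kPa replicate 1 together, and of the shallow or the deep libraries alone.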

Additional observations from a re-analysis of the deposited data

Results flagged for a closer look

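In 5 of the 147 sets of 4 libraries (49 genes at 3 stiffnesses), 1 library stood so far from the other 3 that its gap took up most of the range of its group. Chance alone flags about 1 in 20 sets. ORC2 had 69.8 CPM in 8 kPa replicate 4 and 64.2 to 64.6 CPM in the other 8 kPa libraries. CDT1 had 10.8 CPM in 30 kPa replicate 3 and 8.76 to 9.09 CPM in the others. GINS3 had 14.1 CPM in 1 kPa replicate 4 and 8.97 to 9.57 CPM in the others. POLA2 had 4.75 CPM in 1 kPa replicate 1 and 3.58 to 3.61 CPM in the others. PRIM1 was the sole case of a low library, with 10.5 CPM in 30 kPa replicate 4 and 11.6 to 11.7 CPM in the others. None of these 5 genes passed the test in any pair of stiffnesses.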

How the results depend on the processing

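No called value changed sign under any alternative run. Called members at 8 against 1 kPa (21) numbered 7 with the 2 groups alone, 0 with depth class as a term, 0 in the shallow libraries alone, 2 without 1 kPa replicate 2 and 8 kPa replicate 1, and 5 to 31 with 1 library left out. At 30 against 1 kPa (6) they numbered 2 by library size alone, 12 without the low-count filter, 13 with DESeq2, 0 with depth class, 2 with the 2 groups alone, 3 without both libraries and 0 to 13 with 1 library left out, and the median was 0.35 with depth class. For any difference (13) the counts were 20 without the filter, 20 with DESeq2 and 0 with depth class. They were 2 without both libraries and 1 to 28 with 1 library left out. Over all genes the 437 calls at 30 against 1 kPa became 263 by library size, 875 without the filter and 1068 with DESeq2. The 1646 calls for any difference became 2362 without the filter, 3117 with DESeq2 and 356 without both libraries.

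Other replication genes called at 8 against 1 kPa (23) numbered 0 with depth class, 0 in the shallow libraries, 2 without both libraries and 12 to 35 with 1 library left out. At 30 against 8 kPa (0) they numbered 1 with DESeq2 and 0 to 4 with 1 library left out. At 30 against 1 kPa (7) they numbered 4 by library size, 13 without the filter, 14 with DESeq2, 0 with depth class, 2 without both libraries and 0 to 13 with 1 library left out.

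No label states that replicate numbers pair the libraries, and the values do not settle it. The correlation of same-numbered deviations ran from -0.13 to 0.24 at 8 against 1 kPa, 0.05 to 0.37 at 30 against 8 kPa and 0.03 to 0.18 at 30 against 1 kPa. With a replicate block 25, 0 and 9 members passed, and 33, 0 and 15 of the other replication genes. Over all genes the block gave 3273, 40 and 974 calls, against 2472, 0 and 437 without it.

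With depth class as a term the members' median SE at 8 against 1 kPa was 0.133, against 0.0914 without it. Their median log2 fold change was 0.38, against 0.28. The estimate with that term rests on 8 kPa replicate 1, the sole shallow library outside 1 kPa. The cause of the other shifts was not tested.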

Other observations

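Some pairs of partner genes were set against each other within a library, as ratios of CPM, with no test. RRM1 over RRM2, the subunits of ribonucleotide reductase, ran from 0.997 to 1.10 at 1 kPa, 0.909 to 0.990 at 8 kPa and 0.949 to 1.01 at 30 kPa, so the 8 kPa libraries lay below all 1 kPa libraries. CDC6 over ORC6 ran from 0.748 to 0.831 at 1 kPa, 0.863 to 1.17 at 8 kPa and 0.887 to 1.04 at 30 kPa. ORC1 over ORC2 ran from 0.100 to 0.181 at 1 kPa, 0.151 to 0.230 at 8 kPa and 0.156 to 0.179 at 30 kPa, with the widest spread at 1 kPa.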
